A study of Homo sapiens with 9 samples.

Results

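PLEK, TRIP10, MGLL, TBC1D10A, SLC43A3, ANKRD33B and ABTB2 are 7 of the 60656 genes counted in RIVA cells that carried an inducible mutant of BCL10. They were chosen by name from the counted genes because their rises over the empty vector were among those with the smallest p-values, so their differences from vector are described here without a test. How the levels were graded over vector, S136X and R58Q, and whether the 2 mutants differed from each other, were the questions asked of them. RIVA is an established ABC-DLBCL line, a large B-cell lymphoma of the activated B-cell type. The cells received lentiviral plvx-Tetone constructs, in which doxycycline switches on the insert, and were kept under puromycin as a selected population. The vector group held the construct with no insert, the S136X group a BCL10 cut short by a stop codon after its CARD domain, and the R58Q group a BCL10 with a missense change in its CARD domain. Each group had 3 libraries of polyadenylated RNA, and all 9 cultures had doxycycline at 200 ng/mL for 24 h, the vector cells included. The endogenous BCL10 gene was left in place in every group, so the mutants were expressed beside it.

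BCL10 is a signalling adaptor that links the B-cell receptor, through protein kinase C (PKC), to NF-kB. The 7 genes belong to no single pathway. PLEK encodes pleckstrin, a major PKC substrate of platelets and leukocytes with a pleckstrin homology domain at each end. TRIP10 (CIP4) is an F-BAR protein that binds curved membrane and active CDC42, and TBC1D10A (EPI64) is a TBC-domain activator of Rab GTPase hydrolysis that binds the ERM scaffold EBP50. MGLL is monoacylglycerol lipase, which cleaves the endocannabinoid 2-arachidonoylglycerol, and SLC43A3 is an equilibrative transporter of purine nucleobases. ANKRD33B and ABTB2 carry ankyrin repeats, in ABTB2 together with a BTB domain, and less is known of what they do.

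The libraries held 28047713 to 33122267 counts, with a median of 32185418. Between replicates the chi-square per degree of freedom over genes, which is about 1 where counting error is alone, was 7.91 to 25.6, so no pair looked like 1 library deposited more than once. The column names carry 1 date for vector and S136X and a later one for R58Q, so R58Q and that date cannot be told apart in any comparison with R58Q. BCL10 itself was at 30.9 ± 6.87 CPM (read counts scaled to library size; SD, n = 3) in vector, 414.4 ± 71.7 in S136X and 335.0 ± 24.0 in R58Q, which the construct's own transcript enters. The 7 B-cell markers summed to 2442 to 3222 CPM over the 9 libraries. PLEK is also high in platelets and myeloid cells, and the markers of these cells were near 0: the 8 myeloid markers summed to at most 0.682 CPM with CD33 at 0, and the 6 megakaryocyte and platelet markers to at most 0.944 CPM with PF4 and GP9 at 0. The 6 T-cell markers summed to 5.49 to 15 CPM, mostly from CD8A and TRAC. CD3E had at most 9 counts in any library, and CD3D, CD3G and CD2 at most 2.

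The table of RefSeq promoters (GRCh38.p14) held 4 of the 7 genes, PLEK, TBC1D10A, ANKRD33B and ABTB2. The 250 bases before the start of 3 of them are shown because PLEK and TBC1D10A had the widest gaps between the mutants and ANKRD33B the narrowest. Each runs 5′ to 3′ on the gene's own strand, at chr2:68365032-68365281 (plus) for PLEK, chr22:30326942-30327191 (minus) for TBC1D10A and chr5:10563820-10564069 (plus) for ANKRD33B. Capitals mark a match on either strand to the CCAAT box in TBC1D10A and to the NF-kB consensus in ANKRD33B.
PLEK: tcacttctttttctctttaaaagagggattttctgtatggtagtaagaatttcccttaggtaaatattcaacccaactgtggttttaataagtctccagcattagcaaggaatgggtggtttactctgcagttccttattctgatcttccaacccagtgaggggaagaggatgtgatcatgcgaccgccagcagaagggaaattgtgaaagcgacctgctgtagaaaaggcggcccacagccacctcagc
TBC1D10A: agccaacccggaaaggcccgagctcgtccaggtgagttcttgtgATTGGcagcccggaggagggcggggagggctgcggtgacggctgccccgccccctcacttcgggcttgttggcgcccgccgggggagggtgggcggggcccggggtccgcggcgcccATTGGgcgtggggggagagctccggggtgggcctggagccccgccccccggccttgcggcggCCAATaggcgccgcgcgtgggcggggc
ANKRD33B: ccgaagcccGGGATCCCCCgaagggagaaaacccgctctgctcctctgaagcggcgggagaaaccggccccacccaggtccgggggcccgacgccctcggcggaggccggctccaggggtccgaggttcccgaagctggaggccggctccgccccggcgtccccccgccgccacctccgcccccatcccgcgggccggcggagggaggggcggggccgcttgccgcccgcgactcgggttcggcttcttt
In the window of 300 bases from 250 before to 50 after the start, 5 motifs were searched on both strands: the NF-kB consensus, AP-1 (TGANTCA), the interferon response element (a GAAA repeat with 2 bases between), TATAAA and CCAAT. Of 27303 promoters of this length, 10.8% held the NF-kB consensus, 7.76% AP-1, 3.65% the interferon response element, 12% TATAAA and 35.7% CCAAT. The ANKRD33B window held 1 NF-kB match, starting 241 bases before the start. TBC1D10A held 3 CCAAT boxes at 206, 89 and 27 bases before the start, and ABTB2 held 2 at 105 and 74 bases. PLEK held none of the 5, which says only that these letters are not in this window. PLEK also stood apart in base composition, with 47.0% G and C and 4 CpG, against 78.0% and 35 for TBC1D10A, 74.7% and 35 for ANKRD33B and 69.7% and 30 for ABTB2. The median over all promoters was 58.3% and 14 CpG.

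PLEK (ENSG00000115956.10, GRCh38 chr2:68365282-68397453, plus strand) had the largest rise of the 7. Its level was at 145.1, 190.6 and 172.7 CPM in vector replicates 1, 2 and 3, at 568.7, 645.4 and 580.3 in S136X and at 1110, 965.4 and 1121 in R58Q. The 3 groups did not overlap, and the lowest R58Q library lay above the highest S136X library. The fitted log2 difference from vector was 1.82 (3.53-fold) in S136X and 2.65 (6.28-fold) in R58Q. Its libraries held 4889 to 36635 reads of the gene. TRIP10 (ENSG00000125733.18, chr19:6737925-6751530, plus strand) had 35.8, 37.1 and 38.9 CPM in vector, 90.2, 82.7 and 95.2 in S136X and 149.3, 125.8 and 153.9 in R58Q. It too was ordered without overlap, at 2.40-fold over vector in S136X and 3.83-fold in R58Q.

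MGLL (ENSG00000074416.14, chr3:127689062-128052190, minus strand) began at a higher level, with 191.1, 179.3 and 173.4 CPM in vector. S136X libraries held 390.2, 383.7 and 355.2 CPM and R58Q libraries 619.9, 517.8 and 581.0, so this lipase gene was 2.08-fold over vector in S136X and 3.16-fold in R58Q, with no overlap. TBC1D10A (ENSG00000099992.16, chr22:30291990-30326947, minus strand) was the lowest gene of the set, with 8.90, 9.08 and 9.83 CPM in vector. It was at 16.4, 18.6 and 19.0 CPM in S136X and at 30.5, 30.8 and 31 in R58Q. Its R58Q libraries had a coefficient of variation of 0.831%, on 904, 923 and 1012 counts. That spread is narrower than counting error alone gives, so it is not read as a trait of the gene. The rise of TBC1D10A over vector was 1.94-fold in S136X and 3.31-fold in R58Q.

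SLC43A3 (ENSG00000134802.18, chr11:57406954-57427580, minus strand) had 48.8, 51.1 and 52.8 CPM in vector, 120.9, 110.0 and 118.4 in S136X and 177.2, 133.5 and 166.7 in R58Q. The mutants did not overlap, but R58Q replicate 2 lay close above S136X replicate 1. ABTB2 (ENSG00000166016.6, chr11:34150987-34358010, minus strand) had 26.7, 27.8 and 31 CPM in vector, 96.6, 79.5 and 97.4 in S136X and 136.7, 100.4 and 143.2 in R58Q, where replicate 2 was again the nearest to S136X. ANKRD33B (ENSG00000164236.12, chr5:10564070-10657816, plus strand) had 145.1, 145.8 and 158.0 CPM in vector, 440.1, 384.8 and 436.8 in S136X and 487.9, 364.5 and 508.9 in R58Q. It was the 1 gene of the 7 whose mutant libraries overlapped, since R58Q replicate 2 was below all 3 S136X libraries. Over vector the rises in S136X and R58Q were 2.29-fold and 3.12-fold for SLC43A3, 3.20-fold and 4.44-fold for ABTB2, and 2.81-fold and 3.03-fold for ANKRD33B.

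**Figure D1:**
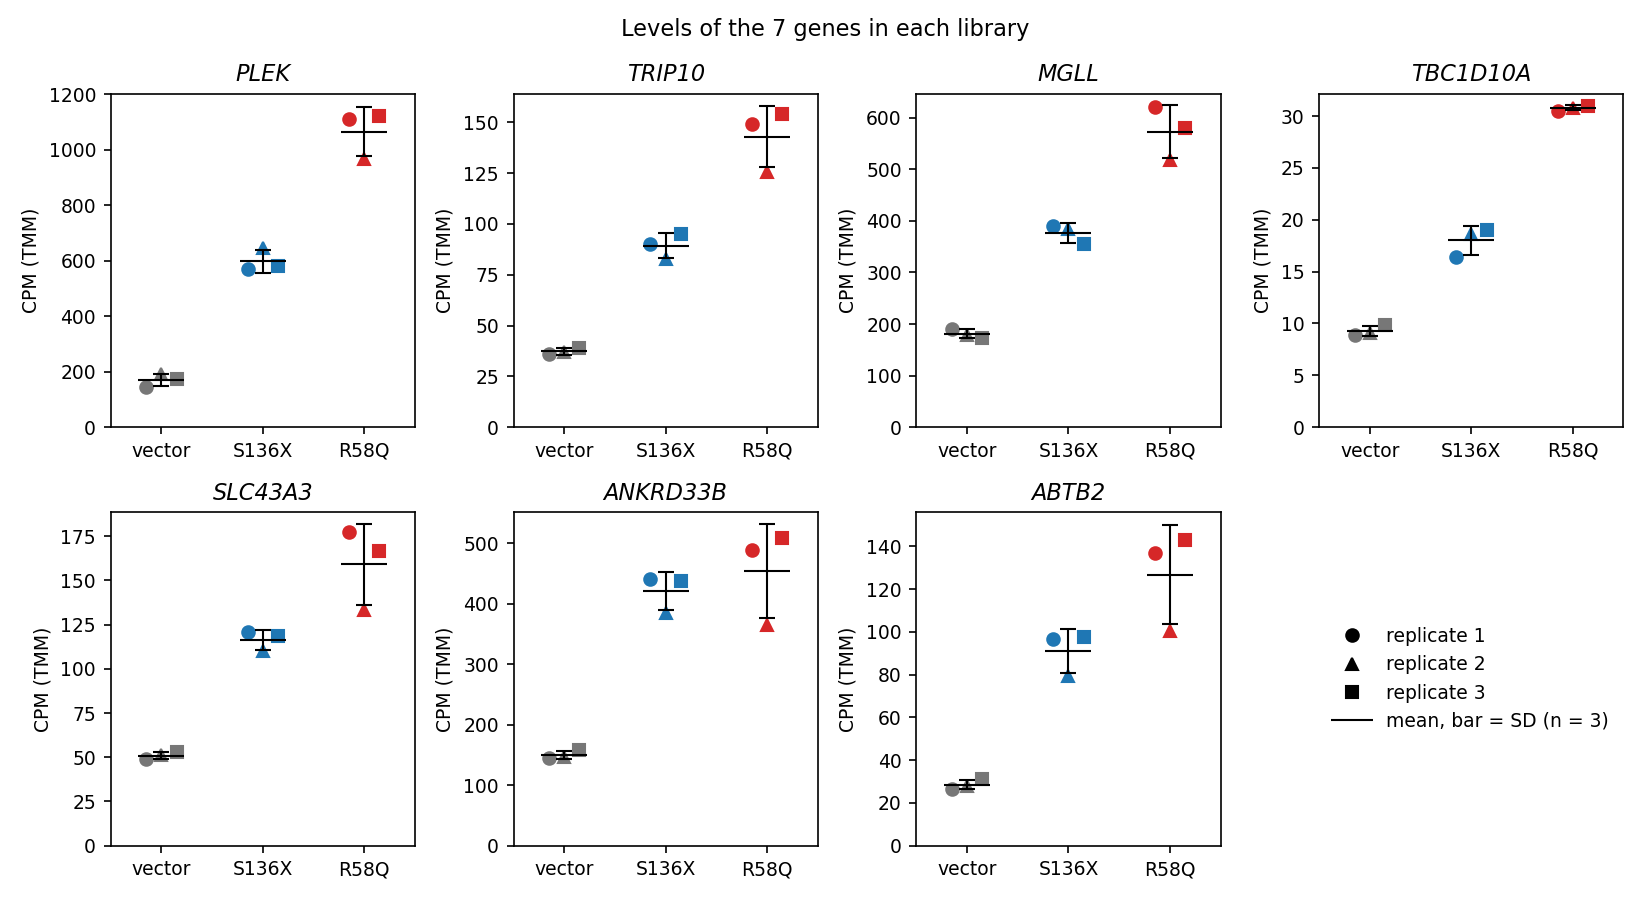
Level of each gene in CPM after TMM scaling (y axis, linear, from 0, a separate scale for each gene) in the 3 vector, 3 S136X and 3 R58Q libraries, with the mean as a horizontal line, the SD as a bar and the marker shape giving the replicate number. Every mutant library sits above every vector library, and ANKRD33B is the gene in which S136X and R58Q overlap.

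Both mutants had all 7 genes called higher than vector (edgeR's quasi-likelihood test, 1.5-fold or more with an adjusted p under 0.05), as the choice of the genes fixes. Of all genes tested, 2.05% of 15530 were called higher and 1.82% lower in S136X, and 4.09% of 15435 higher and 3.54% lower in R58Q. Every S136X library was above every vector library for 7 of 7 genes, against 16% of all genes, and the same held for R58Q in 7 of 7, against 21.1%. Ordered by p among the genes that were higher than vector in S136X, ANKRD33B was at place 6, SLC43A3 at 8, PLEK at 11, TRIP10 at 12, ABTB2 at 13, MGLL at 15 and TBC1D10A at 84. In R58Q PLEK was at place 5, TRIP10 at 7, TBC1D10A at 9, MGLL at 12, ABTB2 at 35, SLC43A3 at 39 and ANKRD33B at 71. ANKRD33B was thus the first of the 7 in S136X and the last in R58Q, and TBC1D10A the last in S136X. Both orders share the 3 vector libraries.

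Levels were also set side by side per kilobase of exon, with all annotated exons of a gene merged. For MGLL this length is 11849 bases against 4941 for its longest transcript, and for ANKRD33B 9783 against 9188. The order of the middle genes thus depends on the length used. On merged exons PLEK was the most abundant in vector at 51.1 CPM per kb and TBC1D10A the least at 1.32. Between them in vector, on this length, came MGLL and ANKRD33B, both at 15.3, SLC43A3 at 11.3, TRIP10 at 9.36 and ABTB2 at 5.73. In R58Q PLEK was at 321.4 CPM per kb, MGLL at 48.3, ANKRD33B at 46.4, TRIP10 at 35.9, SLC43A3 at 35.2, ABTB2 at 25.5 and TBC1D10A at 4.36. The top and the bottom of the order of levels were therefore the same genes in both groups. On merged exons TRIP10 and SLC43A3 lay within their spread of each other in R58Q, as did MGLL and ANKRD33B, which the choice of length can change.

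The group means rose from vector through S136X to R58Q for 7 of 7 genes, against 24.7% of 15860 genes. The choice of the genes fixes vector as the lowest group, so only the order of the mutants was free. Among the 276 genes called higher in both mutants, to which the 7 belong, 84.1% had the higher mean in R58Q. How far S136X reached along the way to R58Q varied between the genes. The S136X log2 difference from vector was 55.4% of the R58Q difference for TBC1D10A, 63.6% for MGLL, 65.1% for TRIP10, 68.7% for PLEK, 72.7% for SLC43A3, 78.0% for ABTB2 and 93.3% for ANKRD33B. Over the 276 genes the median of this share was 77.1%, with quartiles at 64.7% and 90.8%, so TBC1D10A and MGLL were below the lower quartile and ANKRD33B above the upper one.

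The direct comparison of R58Q with S136X was not used to choose the genes, although it shares their mutant libraries. PLEK, TBC1D10A, TRIP10 and MGLL were higher in R58Q than in S136X. PLEK differed by 0.82 on the log2 scale (SE 0.0813, 1.77-fold, 95% interval 1.55 to 2.02, adjusted p = 0.00912 over all genes in edgeR). TBC1D10A differed by 0.76 (SE 0.0839, 1.70-fold, 1.48 to 1.94, adjusted p = 0.0138), TRIP10 by 0.67 (SE 0.0924, 1.59-fold, 1.37 to 1.84, adjusted p = 0.0282) and MGLL by 0.60 (SE 0.0756, 1.51-fold, 1.34 to 1.71, adjusted p = 0.022). In each of the 4 genes all 3 R58Q libraries were above all 3 S136X libraries. That is 4 of 7 genes called higher, against 0.27% of the 15195 genes tested (0.434% in either direction) and 8.7% of the 276 genes called higher in both mutants.

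The other 3 genes did not pass. ABTB2 differed by 0.47 on the log2 scale (1.38-fold, 95% interval 1.10 to 1.73, edgeR adjusted p = 0.244) and SLC43A3 by 0.44 (1.36-fold, 1.15 to 1.60, adjusted p = 0.132). Their libraries did not overlap, so non-overlap held for 6 of 7 genes against 9.45% of all genes. Its share among the 276 genes called higher in both mutants, a closer match to the 7, was not computed. Of those 276 genes, 84.1% had the higher mean in R58Q. ANKRD33B differed by 0.10 (1.07-fold, adjusted p = 0.871), and its interval of 0.88-fold to 1.31-fold leaves out a difference as large as that fitted for the 4 called genes. With the replicate number as a block, the edgeR adjusted p was 4.49e-06 for SLC43A3 and 1.28e-06 for ABTB2, both still under 1.5-fold, and 0.265 for ANKRD33B. The 4 calls also held with the block, where MGLL differed by 0.59 (edgeR adjusted p = 6.68e-08). Leaving out 1 mutant library at a time ended some of the 4 calls. PLEK lost its call in 2 of 6 such fits (without replicate 3 of either mutant), TBC1D10A in 3 (without S136X replicate 2 or 3 or R58Q replicate 3), and TRIP10 and MGLL in 5 each (all but the fit without R58Q replicate 2), with adjusted p up to 0.158. Over these fits the log2 difference stayed at 0.78 to 0.89 for PLEK, 0.70 to 0.81 for TBC1D10A, 0.61 to 0.75 for TRIP10 and 0.54 to 0.67 for MGLL. The call of MGLL, whose difference is close to the 1.5-fold limit, was also lost with upper-quartile scaling.

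**Figure D2:**
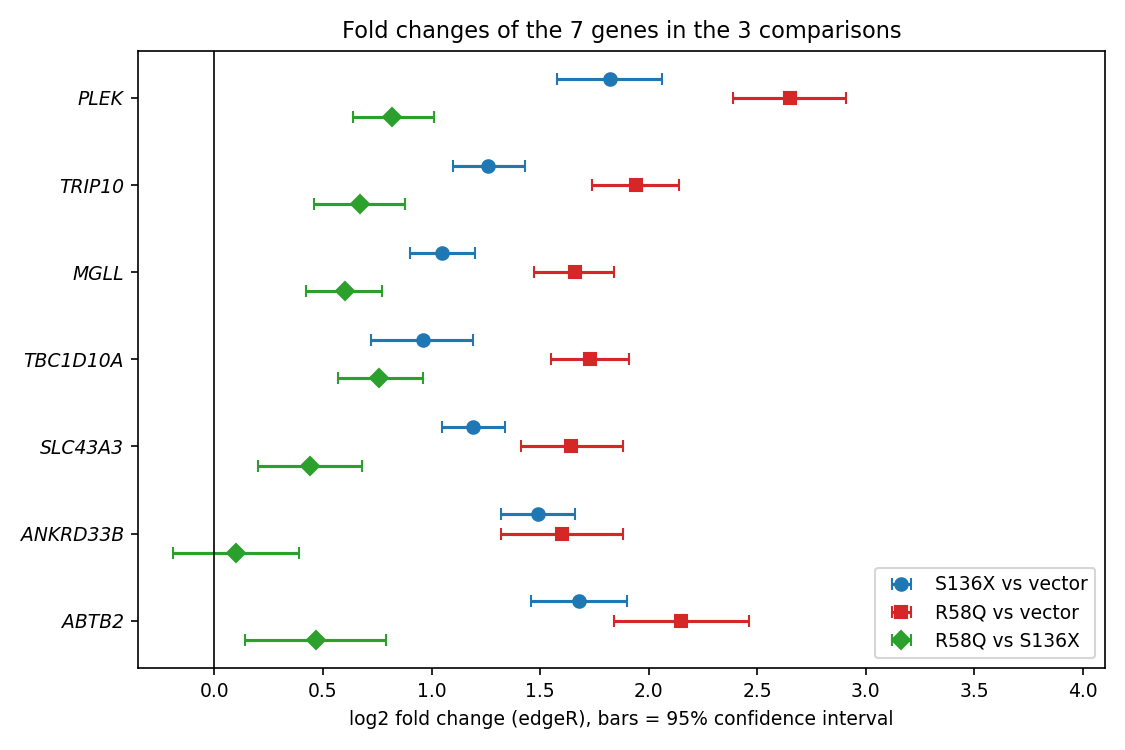
Log2 fold change of each gene (x axis) in S136X against vector (circles), R58Q against vector (squares) and R58Q against S136X (diamonds), with 95% confidence intervals from edgeR as bars. The differences from vector chose the genes and are a description, and the interval of R58Q against S136X takes in 0 for ANKRD33B, the gene at 0.10.

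The ratio of each gene to ANKRD33B within the same library does not depend on library scaling. ANKRD33B was taken as the reference because it differed least between the mutants. That choice by itself puts the other ratios higher in R58Q, so they are a description with no test. The log2 ratio was higher in R58Q than in S136X by 0.73 for PLEK, 0.68 for TBC1D10A, 0.58 for TRIP10, 0.51 for MGLL, 0.37 for ABTB2 and 0.34 for SLC43A3. For all 6 genes every R58Q library was above every S136X library, and the share of all genes with such a ratio was not computed. Against vector the ratio went both ways in S136X. PLEK rose from a mean log2 ratio of 0.17 in vector to 0.51 in S136X, whereas TRIP10 went from -2.01 to -2.23, since ANKRD33B rose more in S136X than TRIP10 did.

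**Figure D3:**
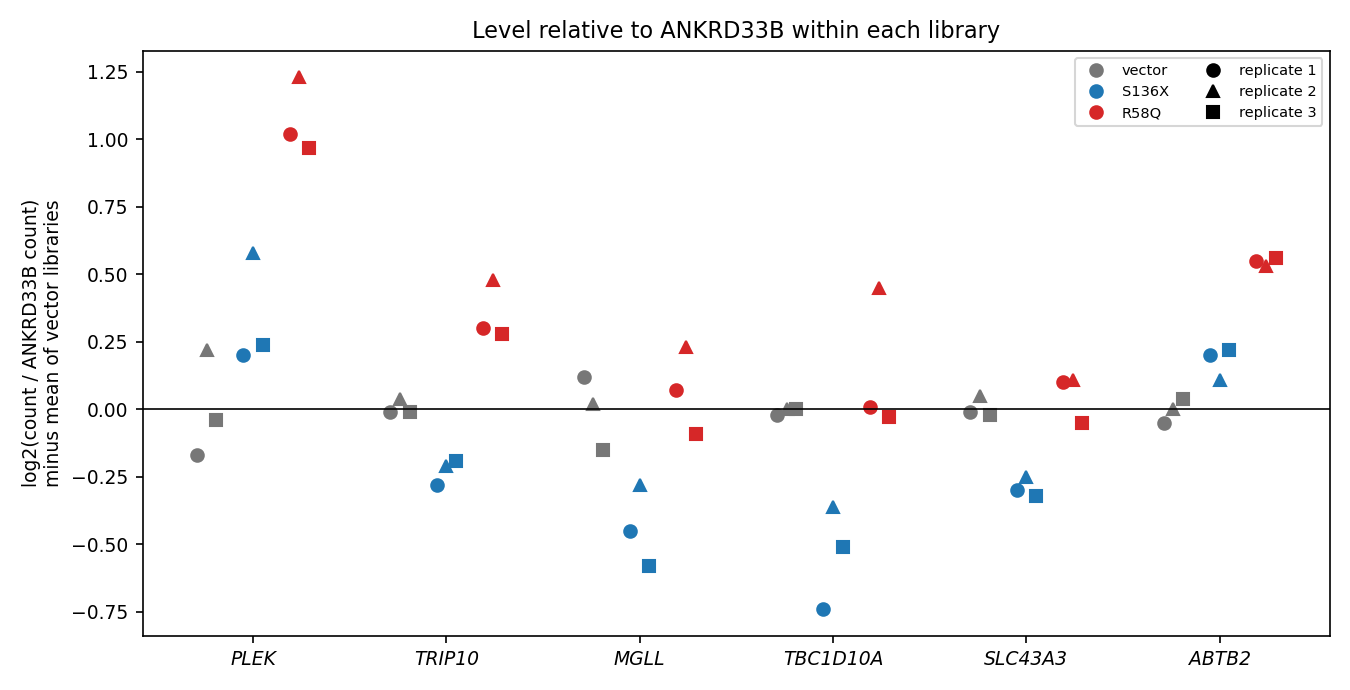
Log2 ratio of each gene's count to the ANKRD33B count in the same library, less the mean of the 3 vector libraries (y axis), for 6 genes in 9 libraries, with colour giving the group and marker shape the replicate. R58Q points lie above S136X points for every gene, and S136X points lie below 0 for TRIP10, MGLL, TBC1D10A and SLC43A3 and above 0 for PLEK and ABTB2.

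The spread within groups was partly common to the 7 genes. R58Q replicate 2 was the lowest R58Q library for 6 of them, the exception being TBC1D10A, with a median deviation of -0.18 and a lowest of -0.32 from the group mean on the log2 scale. Vector replicate 1 was the lowest vector library for 6 genes, MGLL being the exception. The coefficient of variation in R58Q was widest for ABTB2 at 18.2%, ANKRD33B at 17.2% and SLC43A3 at 14.4%, the 3 genes that did not pass between the mutants. Without R58Q replicate 2, the log2 difference between the mutants was at the top of its range for SLC43A3 (0.55), ABTB2 (0.61) and ANKRD33B (0.24). None of these 3 genes gained a call in any of the 6 leave-one-out fits. R58Q replicate 2 was also the lowest R58Q library for PLEK, TRIP10 and MGLL, which were called.

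The genes with the most similar profiles, measured as the root mean square difference of log2 CPM centred on each gene's mean over the 9 libraries, were taken from 12081 genes. For PLEK they were BCL2A1, a BCL2-family survival gene, at 0.141, the hyaluronan receptor CD44 at 0.158 and the cytokine gene TNF at 0.220. For TBC1D10A they were CD40, a TNF-receptor-family gene of B cells, at 0.111, CFLAR, an inhibitor of caspase 8, at 0.121 and the transcription factor STAT5A at 0.123. MGLL was nearest to ARHGAP31 at 0.102, CD40 at 0.112 and SLC43A3 at 0.114. TRIP10 was nearest to the tetraspanin TSPAN33 at 0.102, ARHGAP31 at 0.105 and SLC43A3 at 0.138. SLC43A3 was in turn nearest to ARHGAP31 at 0.098, AEN, an exonuclease gene, at 0.111 and MGLL at 0.114. ANKRD33B was nearest to ZNF385C at 0.132, AEN at 0.153 and SLC43A3 at 0.160. ABTB2 was nearest to the kinase gene MAP3K8 at 0.115, TVP23A at 0.139 and NABP1, which encodes a single-stranded DNA binding protein, at 0.170. Among the 7 genes themselves the closest pair was MGLL with SLC43A3 at 0.114 and the most distant PLEK with ANKRD33B at 0.472.

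No closest paralog of the 7 genes was called higher in either mutant. PLEK2, ANKRD33 and BTBD11 had 0 counts in all 9 libraries, and the other 7 were tested, with 1 called lower in each mutant. Of all genes tested, 2.05% were called higher and 1.82% lower in S136X, and 4.09% higher and 3.54% lower in R58Q. The lack of a paralog called higher is thus near the share of all genes. FNBP1L, the F-BAR relative of TRIP10, fell in R58Q by 0.67 on the log2 scale (edgeR adjusted p = 0.000998) and was at -0.36 in S136X (adjusted p = 0.0296, under 1.5-fold), while FNBP1, the other relative, was at 0.26 and 0.13 in S136X and R58Q. TBC1D10C, a leukocyte relative of TBC1D10A, fell by 0.60 in S136X (adjusted p = 0.0216), a call lost without vector replicate 2 or 3 or S136X replicate 1 or 3 (range -0.72 to -0.48), and was at -0.56 in R58Q (adjusted p = 0.00907, under 1.5-fold). It passed 1.5-fold in R58Q too without vector replicate 1 or R58Q replicate 2 or 3 (range -0.62 to -0.45) and with upper-quartile or total-count scaling, which makes 2 paralogs called lower there. TBC1D10C went from 27.6 ± 2.01 CPM in vector to 18.2 ± 3.17 in S136X and 18.7 ± 2.22 in R58Q (SD, n = 3), while TBC1D10B was at 0.09 and -0.01. Of the amino acid transporters related to SLC43A3, SLC43A2 was at -0.54 and -0.41 (adjusted p = 0.0126 and 0.0187, both under 1.5-fold) and SLC43A1 at 0.19 and 0.04. SLC43A2 was called lower in S136X without S136X replicate 2 (range -0.61 to -0.44) and with total-count scaling, which makes 2 paralogs called lower there. ABTB1 was at 0.05 and 0.35.

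In the wider pathways of the 7 genes the calls were few and went in both directions. Over 6 lists of 143 genes, 3 of 120 tested were called higher and 4 lower in S136X (5.83% called, against 3.87% of all genes), and 5 of 121 were called higher and 6 lower in R58Q (9.09% against 7.63%). The median log2 difference over the lists was -0.01 in S136X and -0.03 in R58Q, beside -0.02 and -0.03 over all genes. Between the mutants 0 of 120 were called by edgeR, which is near the 0.434% called of all genes. At an unadjusted p under 0.05 in edgeR were 15, of which 5 were higher in R58Q and the rest lower. That share was not computed over all genes. DESeq2 and limma-voom called 0, and the fit with the replicate block called 2.

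In the list of pleckstrin and PKC signalling, 1 of 19 tested genes was called higher and 1 lower in S136X, and 2 higher and 1 lower in R58Q, with medians of -0.09 and -0.12. RASGRP1, a diacylglycerol-bound activator of RAS, rose in S136X by 1.32 and in R58Q by 1.54 on the log2 scale (edgeR adjusted p = 0.0136 and 0.00534). Its relative RASGRP3 rose by 1.18 in R58Q (adjusted p = 0.0157, lost without R58Q replicate 3, range 1.01 to 1.44) and was at 0.91 in S136X (adjusted p = 0.0556). In S136X RASGRP3 was called with the replicate block (0.89, edgeR adjusted p = 9.63e-05), with no low-count filter and without S136X replicate 1 (range 0.69 to 1.15). DGKA, a kinase that consumes diacylglycerol, fell by 0.60 and 0.68 (adjusted p = 0.00424 and 0.00525), the first lost without vector replicate 2 or 3 or S136X replicate 1 (range -0.66 to -0.53). Of 25 F-BAR and CDC42 genes, 0 were called in S136X and 2 fell in R58Q, FNBP1L and PACSIN1 (-0.77, adjusted p = 0.00641), an F-BAR protein of endocytosis, with medians of -0.07 and -0.09.

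Of the monoacylglycerol and endocannabinoid list, 1 of 17 tested genes was called lower in S136X, and 1 of 18 was called higher and 1 lower in R58Q, with a median of 0.04 in both. CNR1, the CB1 receptor for the lipid that MGLL degrades, fell in S136X by 0.82 and in R58Q by 0.69 (edgeR adjusted p = 0.0103 and 0.00297), the first lost without vector replicate 2 (range -1.0 to -0.70). PTGS1, a cyclooxygenase, rose by 0.97 in R58Q (adjusted p = 0.0308), a call lost without replicate 1 or 3 of vector or of R58Q (range 0.76 to 1.20). In S136X PTGS1 was at 0.67 (adjusted p = 0.0915) and was called with the replicate block (adjusted p = 0.0441), with DESeq2 and with no low-count filter, so the block gives 2 of 17 called. The level of CNR1 went from 79.0 ± 7.27 CPM in vector to 44.8 ± 9.99 in S136X and to 48.9 ± 5.85 in R58Q (SD, n = 3), so it was lower in the groups where MGLL was higher.

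Of the 19 tested genes on the list of TBC1D10 proteins with their Rabs and ERM partners, 1 was called higher and 1 lower in each mutant, with medians of 0.02 and -0.09. DENND1B, an exchange factor for Rab35, rose by 0.64 and 0.61 (edgeR adjusted p = 0.00531 and 0.0261). The S136X call was lost without S136X replicate 1 (range 0.58 to 0.73) and with total-count scaling. The R58Q call was lost without any 1 vector library, without R58Q replicate 1 or 3 (range 0.48 to 0.77) and with upper-quartile or total-count scaling. SLC9A3R2, an ERM-binding scaffold, was called lower in R58Q (-0.65, adjusted p = 0.0339), a call lost without any 1 vector library or R58Q replicate 2 or 3 (range -0.79 to -0.51). Of 18 genes of nucleobase and nucleoside transport and purine salvage, ENTPD1, the ecto-enzyme CD39 that degrades extracellular ATP, was the 1 gene called, at 1.31 in S136X and 1.02 in R58Q (adjusted p = 0.00345 and 0.0103, the second lost without vector replicate 2, range 0.86 to 1.24), and the medians were 0.15 and 0.10. Of 22 ankyrin-BTB proteins and CUL3 adaptors, KLHL14 alone was called, lower by 0.75 and 0.66 (adjusted p = 0.00601 and 0.00649, the second lost without R58Q replicate 3, range -0.77 to -0.54), with medians of -0.01.

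Of the 14 nearest tested protein-coding genes, 1 on each side of each gene, 1 was called higher in S136X and 3 in R58Q, and none lower. Of all genes tested, 2.05% were called higher in S136X and 4.09% in R58Q. The neighbours called had low counts, of at most 96 in a library. TRIP10 lies 322 bases from GPR108, which was at 0.10 and 0.14 in S136X and R58Q, and 630 bases from SH2D3A, at -0.09 and 0.01, and neither was called. CASTOR1, an arginine sensor of mTORC1 located 2368 bases from TBC1D10A, was at 1.18 in S136X (edgeR adjusted p = 0.119) and rose by 2.70 in R58Q (adjusted p = 0.00195). Its counts were 5, 8 and 15 in vector, 15, 18 and 24 in S136X and 61, 57 and 51 in R58Q, and the R58Q libraries did not overlap the others. Between the mutants CASTOR1 differed by 1.52 (edgeR adjusted p = 0.0582). With the replicate block it was called in S136X (1.21, adjusted p = 0.033) and between the mutants (adjusted p = 0.000292), the latter also with DESeq2 and with no low-count filter. ROPN1L, 92041 bases from ANKRD33B, rose by 1.99 in S136X (adjusted p = 0.0215, lost without vector replicate 1 or 2 or S136X replicate 3, range 1.76 to 2.35, and with limma-voom) and 2.49 in R58Q (adjusted p = 0.00129), from 11 to 18 counts in vector to 27 to 67 in S136X and 56 to 96 in R58Q. PRG2, beside SLC43A3, was called in R58Q at 1.81 (adjusted p = 0.0467), on 2 to 22 counts, and lost the call without vector replicate 1 or 3 or R58Q replicate 2 or 3 (range 1.44 to 2.89), with DESeq2 and with upper-quartile or total-count scaling.

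**Figure D4:**
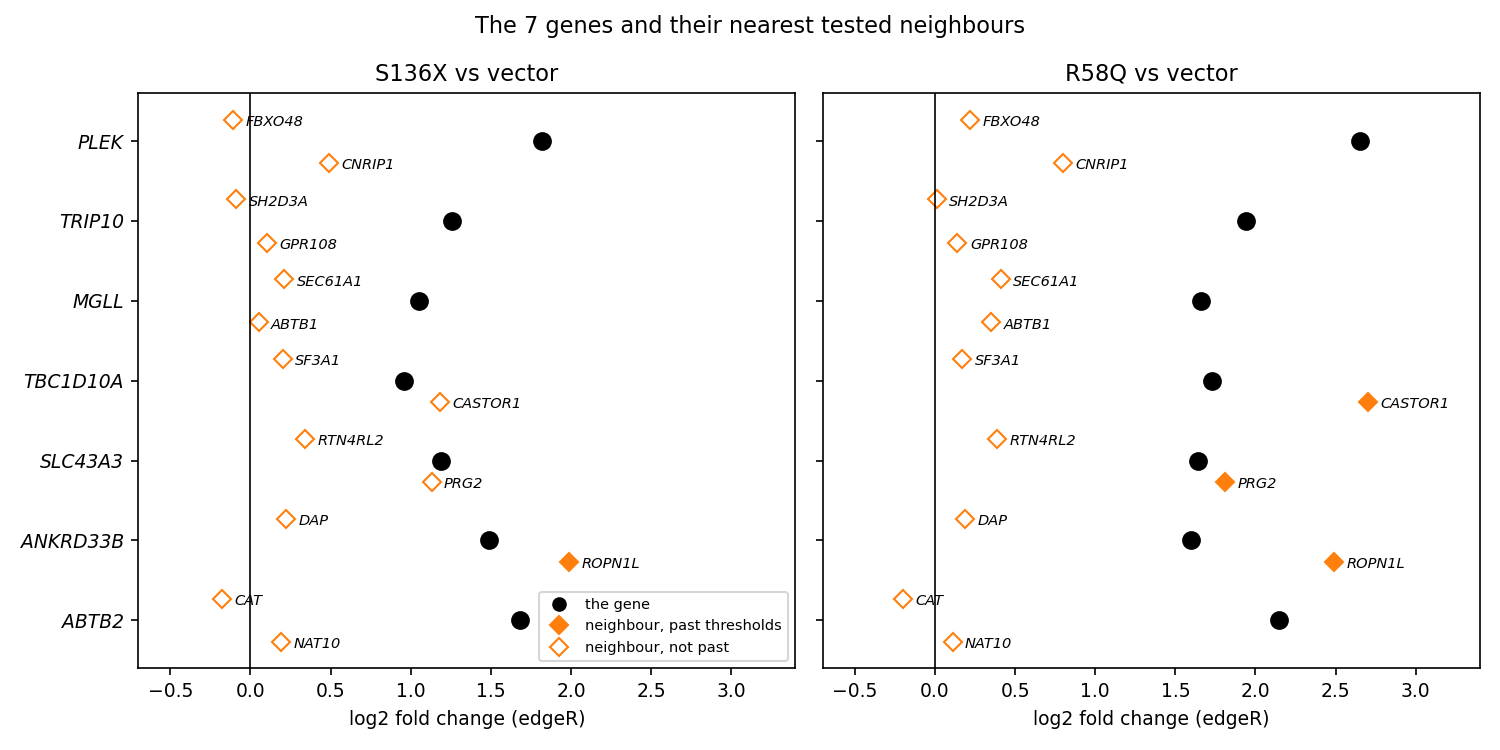
Log2 fold change (x axis, edgeR) of the 7 genes (black circles) and of the nearest tested protein-coding gene on each side (diamonds, filled where the adjusted p was under 0.05 and the change at least 1.5-fold) in S136X (left) and R58Q (right) against vector. Filled diamonds are ROPN1L in S136X and CASTOR1, PRG2 and ROPN1L in R58Q.

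Several of the 7 genes overlap other annotated genes, and whether the counting used strand is not given in the sources used here. Of the words of 31 bases in the longest transcript, 48.7% for SLC43A3 also occur in AP000781.2, a gene annotated over it on the same strand with 2 to 11 counts, and 12.1% for TBC1D10A in AC004997.1, with 0 to 3 counts. The levels of these 2 genes are therefore less certain than those of PLEK, MGLL and ABTB2, which shared 0% on either strand. The antisense pseudogene AC106760.1 shares 8.11% of the ANKRD33B words in reverse and had 8, 8 and 8 counts in vector, 36, 28 and 28 in S136X and 18, 17 and 25 in R58Q, which cannot be told apart from ANKRD33B reads if strand was not used. SEC61A1 overlaps the start of MGLL on the opposite strand and was at 0.21 and 0.41 in S136X and R58Q (edgeR adjusted p = 0.00504 for the second, under 1.5-fold), well below the changes of MGLL.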

How the data were processed

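RNA-seq libraries of 9 RIVA cultures, 3 per group, were analysed. The authors deposited read counts per gene as whole numbers, and the submitters' processing notes name cutadapt, STAR, Picard and hg38 without versions. The study's methods give polyadenylated libraries. The counting tool and annotation are not given in the sources used here. Of the gene identifiers, 96.3% were in GENCODE release 29, from which exon lengths were taken, and 99.9% of those overlapped in position. The deposited table also holds 9 per-sample columns that were not used, which are these counts after division by a library factor.

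Groups came from the sample labels. Each pair of groups was fitted with edgeR 4.0.16 in R 4.3.3 (TMM scaling, filterByExpr with a minimum count of 10 and minimum total of 15, quasi-likelihood test, Benjamini-Hochberg adjustment over all genes tested), and calls needed 1.5-fold or more with an adjusted p under 0.05. CPM values are TMM-scaled. Depth was 28047713 to 33122267 counts. The fits were tested on simulated data. Replicate numbers were taken to pair samples because all 9 correlations of the deviations of same-numbered libraries were over 0.1 (0.143 to 0.626), so a fit with the replicate number as a block was also made. This pairing was read from the same data and joins R58Q libraries to libraries of another date. The main fits and the leave-one-out fits did not use it. The paper calls the replicates biologic, and nothing in the labels says what separated them. The p-values therefore measure the spread between these libraries of a single cell line. The labels give the doxycycline dose with 2 different volume units, and that of the treatment protocol is used.

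Alternatives were upper-quartile and total-count scaling, DESeq2 1.42.0, limma-voom (limma 3.58.1), 1 fit over all 9 libraries, no low-count filter or a floor of 10 counts per library, other thresholds and leaving out each replicate. The 7 genes and the lists (6 pathway lists, closest paralogs, and B-cell, T-cell, myeloid and megakaryocyte and platelet markers) were chosen with earlier results of these data known. Beside the 7 genes, the text names all closest paralogs, up to 4 called genes per pathway list with the largest mean change, the nearest tested protein-coding gene on each side, the 3 genes with the most similar profile, overlapping genes and BCL10. Of the neighbours and overlapping genes, those with a call, a close position or shared sequence are described.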

Additional observations from a re-analysis of the deposited data

Results flagged for a closer look

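The direct test of R58Q against S136X called 4 of the 7 genes, against 8.7% of the 276 genes called higher in both mutants. The log2 difference between the mutants was 0.82 for PLEK, 0.67 for TRIP10, 0.60 for MGLL and 0.76 for TBC1D10A. Each was higher in 3 of 3 R58Q libraries than in any S136X library. The same held for SLC43A3 and ABTB2, which were not called, and for 9.45% of all genes. With 1 library left out, the call was lost in 2 of 6 fits for PLEK and 3 for TBC1D10A. For TRIP10 and MGLL it was lost in 5 each, and for MGLL also with upper-quartile scaling. R58Q carries a later date in the column names than the other libraries, and its part in these differences cannot be told apart from the mutant.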

How the results depend on the processing

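All 7 genes stayed higher than vector and past both thresholds in both mutants under every alternative run, except that TBC1D10A in S136X is under 2-fold, and their means kept the order vector, S136X, R58Q. Between the mutants 4 genes were called, 1 at an adjusted p under 0.01, 0 at 2-fold, and 0 to 4 when 1 library was left out. The count of 0 came without S136X replicate 3 and without R58Q replicate 3. In each of these fits 6 of 7 were at an unadjusted p under 0.05 in edgeR, a share not computed over all genes. With as few libraries, 2 calls were kept without S136X replicate 1 and 1 without S136X replicate 2. Without R58Q replicate 1 there were 2, and without R58Q replicate 2 there were 4. Why the calls were lost was not tested. The replicate block gave 4 calls between the mutants as well and, of the pathway genes, gave 2 calls between the mutants in place of 0. It also raised the neighbours called from 1 to 2 in S136X and from 0 to 1 between the mutants, and the monoacylglycerol list from 1 to 2 in S136X, and left the 7 genes' calls against vector at 7. Pathway genes called in S136X against vector numbered 7, and 4 at an adjusted p under 0.01, 2 at 2-fold, 18 with no fold threshold and 4 to 9 when 1 library was left out, the lowest without vector replicate 2. In R58Q they numbered 11, and 6, 3 and 34 under the same thresholds and 7 to 14 when 1 library was left out, the lowest without R58Q replicate 3. TBC1D10A, with 297 to 1012 counts in a library, had the fewest counts behind its values.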
